A study of Mus musculus with 23 samples.

Results

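Lymphoid-primed progenitors of mouse bone marrow (BM) were picked out of single-cell RNA-seq libraries by the transcripts they carry. A barcode (the tag shared by all transcripts caught with 1 cell) was chosen by its own counts, as a member when it held at least 1 unique molecular identifier (UMI, 1 counted transcript) of Flt3 and at least 1 of Dntt, and none of Ebf1, Vpreb1, Klf1 or Elane. These 6 counts are what the members were selected on, so their levels are given only as a description. The barcode also had to show at least 500 detected genes and at most 10% of its UMIs in mitochondrial genes. Of 69444 BM barcodes that passed the filters on genes and mitochondrial UMIs, 1273 (1.83%) were members, and the BM libraries as deposited held 75993 of the 139967 expression barcodes of the series.

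Flt3 is the receptor for FLT3 ligand and is carried by early multipotent and lymphoid-primed progenitors. Dntt encodes terminal deoxynucleotidyl transferase, which adds untemplated bases at the junctions of rearranging antigen receptor genes and is switched on early in lymphoid specification. The barred genes mark the next steps in other directions: Ebf1 and Vpreb1 the B lineage, Klf1 the erythroid lineage and Elane the granulocyte-monocyte lineage. JAK kinases bound to cytokine receptors such as those for IL-7 and thrombopoietin phosphorylate STAT5B on tyrosine, after which this transcription factor binds DNA, and it acts both in lymphoid progenitors and in stem cells.

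The libraries came from mice aged 2 months, C57BL/6 in the labels and edited on C57BL/6N by the study's methods, that were wild type (WT) or carried Stat5b Y665H or Stat5b Y665F, with 2 BM libraries for each of the 3 genotypes. The study changed the tyrosine Y665 of STAT5B in the germline, so every cell of the mouse carries the change, and the comparison asks how a protein with less activity (Y665H) and one with more activity (Y665F) alter the BM. The labels give no zygosity for BM, whereas the study describes its BM mice as homozygous. Nothing states whether BM cells were depleted of mature cells before loading, or how many mice went into each library.

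The codon that was changed is shown to define the alleles. It lies in exon 16 of 19 of Stat5b, on the minus strand at chr11:100787291-100787293 (GRCm38). Both alleles were made with the same guide, with an adenine base editor for Y665H and with Cas9 and a donor oligo for Y665F. Capitals mark the PAM in the guide and the codon of Y665 in the other 2 sequences.
Guide: tgaggtaattcaggtcccccAGG
Reference transcript: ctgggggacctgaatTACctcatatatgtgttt
Y665F donor oligo: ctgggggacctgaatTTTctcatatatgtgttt
A count of Stat5b transcripts does not read this codon, so the expression level of Stat5b does not check the genotype labels. Members held Stat5b at 24.4 and 16.1 UMIs per 1000000 (CPM) in the WT libraries, 23.1 and 18.6 in Y665H, and 35.0 and 36.0 in Y665F. Both Y665F values lay above the other 4, but the difference from WT did not pass the test (log2 fold change 0.89, SE 0.41, adjusted p = 0.204, edgeR quasi-likelihood test). Stat5a, the neighbouring paralog, stood at 11.3 and 11.2 CPM in WT and 28.8 and 31.7 CPM in Y665F, which also missed the threshold (log2 fold change 1.47, SE 0.47, adjusted p = 0.0695).

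Filtered barcodes per BM library ranged from 3866 to 18711, and the members of a library together held 430184 to 799196 UMIs. Median UMIs per member ranged from 1644 (Y665H 2) to 3391.5 (Y665F 1). The library Y665F 2 stood apart in how it was filtered before deposit: its lowest barcode held 1179 UMIs, against 500 in each of the other 5. In every genotype replicate 1 expressed Xist (244 to 895 CPM) and replicate 2 did not (0.108 to 0.586 CPM), so each genotype has 1 female and 1 male library, while the study's methods name male mice. Pairs of libraries shared 1.54% to 2.89% of barcode sequences, and 1 pair of members shared one.

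The members' transcripts were first set against markers of other cells. For 12 lymphoid priming markers, with Il7r, Rag1, Rag2, Ly6d, Satb1, Notch1 and Ighm among them, the summed level in members was 1250 to 1673 CPM per library, against 446 to 821 CPM in all other filtered barcodes and 774 to 1610 CPM in barcodes that met every clause except that Dntt was at 0. Barcodes with Klf1 and without Flt3, which serve below for comparison, had 190.5 to 600.5 CPM. Their median depth was 2762 to 9265 UMIs per library, and they carry transcripts of their own. A level in them can therefore be their own expression or RNA that drifts between droplets. Which of these it was could not be told from such a level and was not tested. These Klf1 barcodes were not alike across genotypes. Their erythroid markers summed to 6580 to 9417 CPM in WT and Y665H and to 2248 and 887 CPM in Y665F, where granulocyte-monocyte markers reached 593 and 1344 CPM and mature neutrophil markers 414 and 1242 CPM. In Y665F 2 both myeloid sums exceeded the erythroid one, so there the markers go against an erythroid label. The 6 B-lineage markers summed to 60.1 to 109 CPM in members and to 1344 to 5585 CPM in barcodes that had both Dntt and Ebf1. T-lineage markers reached 5.64 to 16.3 CPM, and Cd3e was at 0 in all 6 libraries. Granulocyte-monocyte markers, with Mpo and Prtn3 among them, were present at 708 to 1253 CPM, lower than the 1339 to 2177 CPM of the other barcodes. Mature neutrophil markers varied from 9.40 to 305 CPM and erythroid markers from 106 to 1123 CPM, with no marker of either list at 0 in all libraries. Most of the erythroid sum was Car1, at 100 to 1090 CPM, and globin genes reached at most 9.63 CPM. In WT 2 and Y665H 2 the erythroid sum (913 and 1123 CPM) exceeded the granulocyte-monocyte one (708 and 788 CPM). By these sums the members carried lymphoid priming transcripts with little of the B- and T-lineage markers. They also carried myeloid transcripts and the erythroid marker Car1.

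Plasmacytoid dendritic cells also use Flt3 and can carry Dntt. Their 4 markers summed to 261 to 577 CPM in members, higher in every library than the 186 to 215 CPM of the other filtered barcodes. Most of that sum came from Bst2, an interferon-inducible membrane protein of many cells, at 184 to 303 CPM, and from Cox6a2. The surface marker Siglech was at 0 to 14.4 CPM, and Spib was at 0 in 5 of 6 libraries. Cox6a2, a muscle-type cytochrome oxidase subunit that plasmacytoid cells also express, led the genes ranked by the smallest of their 6 ratios to the other filtered barcodes (CPM plus 1, 1 ratio per library), at 3.37-fold to 11.1-fold and 74.9 to 310 CPM. The genes listed in this ranking were all at 52.97 CPM or more in the members of every library. Il7r, at 37.5 CPM in Y665F 2, was not among them. Next came Wfdc17, a small secreted protein also made by myeloid cells, at 2.65-fold to 6.24-fold, then Satb1, a chromatin organiser of lymphoid progenitors, at 2.40-fold to 6.56-fold, and Notch1, the receptor that directs T-cell commitment, at 2.27-fold to 5.25-fold. Further down the ranking Ighm, whose unrearranged locus gives sterile transcripts before B-cell commitment, stood 1.90-fold to 3.94-fold higher, and Cd34, a surface protein of progenitors, 1.45-fold to 3.79-fold. Against the Flt3 barcodes without Dntt the same ratios were 2.95-fold to 8.58-fold for Cox6a2, 1.44-fold to 3.18-fold for Ighm, 1.43-fold to 2.40-fold for Notch1, 1.22-fold to 1.93-fold for Satb1, 1.08-fold to 1.27-fold for Cd34 and 0.925-fold to 2.51-fold for Wfdc17. These ratios follow from picking the barcodes and are given as a description only.

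Most members met the Flt3 clause of the rule with a single transcript. Flt3 was at exactly 1 UMI in 55.1% to 87.8% of a library's members and Dntt in 29.4% to 63.1%, and 21.1% to 51.4% had 1 UMI of each. The highest member had 24 UMIs of Dntt (WT 1) and 7 of Flt3 (WT 1). Of the 6 libraries, Y665H 2 had the largest number of members just inside the gene limit (12 members with 500 to 549 genes), and 9 barcodes of that library that met every other clause fell just outside it, with 450 to 499 genes. The clause with the largest effect was the one on Elane: among barcodes with Flt3 and Dntt, 27.6% to 61.3% had an Elane UMI, and Elane alone barred 85 to 318 barcodes per library. Elane was nearly as frequent in the Klf1 barcodes, at 26.0% to 48.4% in 5 libraries and at 57.1% in Y665F 2, where these barcodes also carried myeloid markers. Dntt itself appeared in 5.51% to 7.86% of Klf1 barcodes of those 5 libraries, at median depths of 3409 to 9265 UMIs, and in 11.9% in Y665F 2, so a single Dntt UMI does not set every member apart from Klf1 barcodes.

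Members made up a smaller share of Y665F BM than of WT BM. They were 3.80% and 2.75% of filtered barcodes in WT, 2.20% and 2.03% in Y665H and 1.21% and 1.19% in Y665F. The 3 genotypes did not overlap: both WT libraries lay highest, and both Y665F libraries lay lowest, although the exact 95% binomial intervals of WT 2 (2.44% to 3.08%) and Y665H 1 (1.92% to 2.52%) did. The WT mean of 3.28% ± 0.744 (SD, n = 2) was 2.73 times the Y665F mean of 1.20% ± 0.0190, and the Y665H mean was 2.12% ± 0.126. Only the order of the study's activity scale (Y665H, WT, Y665F) was tested, and the shares did not follow it (Jonckheere-Terpstra statistic, exact permutation over the 6 libraries, two-sided p = 0.578, smallest possible p = 0.0222). An exact permutation test of 2 against 2 libraries cannot reach the threshold, so the difference between WT and Y665F is given as values.

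The order of the genotypes was the same after barcodes were thinned to 1000 UMIs, which gives a common depth. Filtered barcodes under 1000 UMIs were left out, 0 in Y665F 2 and 798 to 2468 in the other libraries, so the set of barcodes changed unequally. Members were then 1.97% and 1.45% of barcodes in WT, 1.14% and 1.09% in Y665H and 0.516% and 0.556% in Y665F (p = 0.578 by the same exact permutation test). Without the clause on Elane the shares were 6.26% and 3.84% in WT, 4.27% and 2.84% in Y665H and 2.50% and 2.89% in Y665F, so that Y665F 2 passed Y665H 2. With Dntt at 2 UMIs or more the shares were 2.41% and 1.46% in WT, 1.56% and 0.913% in Y665H and 0.630% and 0.438% in Y665F, so that Y665H 1 passed WT 2 while both Y665F libraries stayed lowest.

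A share also moves with the cells it is divided by, and these differed between genotypes. Mature neutrophil markers in the barcodes outside the gate summed to 17.6 to 157 CPM in WT and Y665H and to 3348 and 1419 CPM in Y665F, and their part in the lower share was not tested. Among barcodes with Flt3 at 1 UMI or more, members were 16.4% and 21.5% in WT, 18.4% and 22.7% in Y665H and 7.20% and 6.68% in Y665F. Both Y665F libraries again lay lowest, whereas WT and Y665H overlapped. A second denominator was added after the data were seen, namely the members plus the barcodes that met every clause except that Dntt was at 0. In that set members were 36.75% and 38.6% in WT, 48.2% and 39.2% in Y665H and 18.0% and 19.4% in Y665F. This is the share of barcodes with Dntt within the rest of the gate, and since Dntt is a gene of the rule it is a description with no test. At 1000 UMIs per barcode the shares were 25.2% and 29.3% in WT, 33.8% and 28.1% in Y665H and 11.5% and 11.2% in Y665F. Both Y665F libraries lay below the other 4 at each depth, whereas WT and Y665H overlapped at 1000 UMIs. Members numbered 204 and 222 in Y665F and 147 to 283 in the other libraries, and the Flt3 barcodes without Dntt numbered 927 and 922 in Y665F and 219 to 451 in the other libraries.

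**Figure D1:**
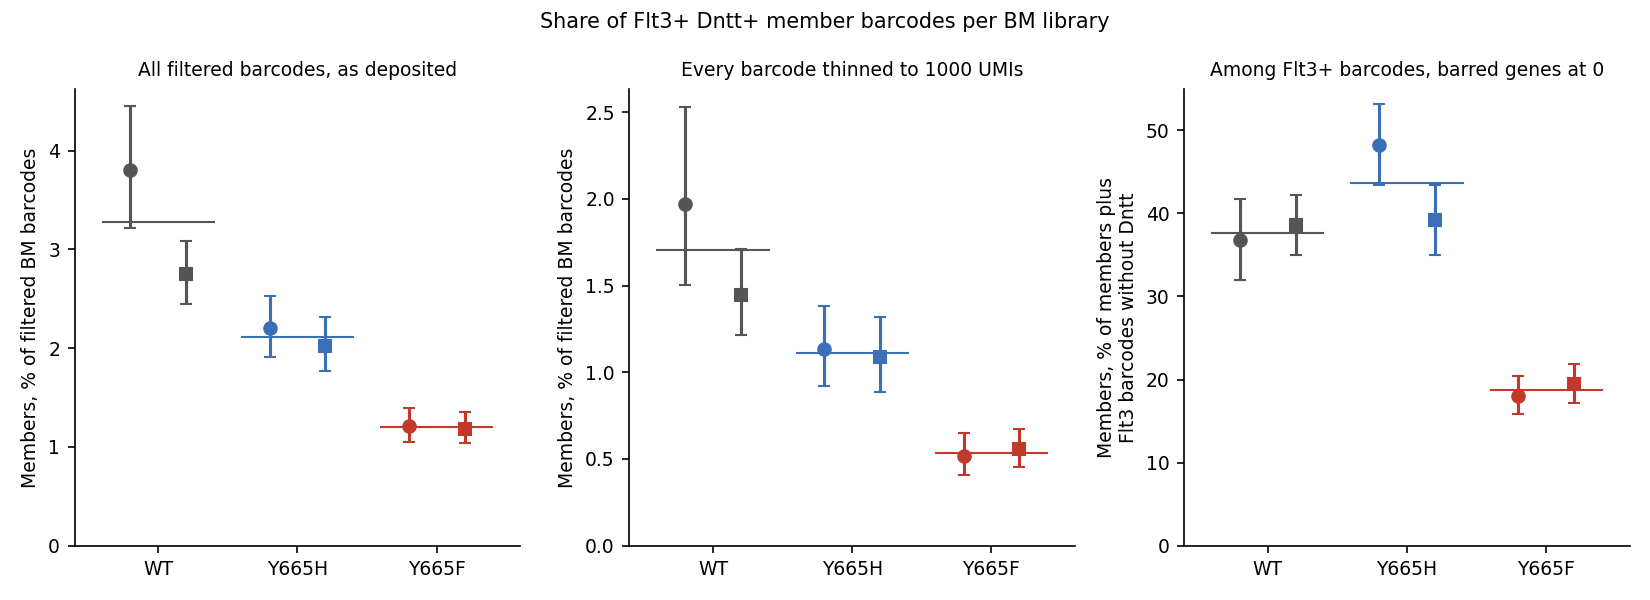
Members in each BM library as a percentage of filtered barcodes as deposited (left), of barcodes thinned to 1000 UMIs, without those under 1000 (middle), and of members plus Flt3 barcodes with Dntt and the barred genes at 0 (right). Circles are replicate 1 and squares replicate 2, bars are exact 95% binomial intervals, which cover counting error only, and lines are genotype means; both Y665F libraries lie lowest in each panel (1.21% and 1.19% at left, 18.0% and 19.4% at right).

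Single lymphoid genes were detected in few members at a fixed depth, for which members under 1000 UMIs were left out (0 to 18 per library). After thinning to 1000 UMIs, Il7r, the receptor chain that lymphoid progenitors need for IL-7, had a UMI in 4.50% to 7.75% of members, against 0.310% to 1.34% of Klf1 barcodes. Ighm had one in 15.8% to 27.6% of members and Cd34 in 17.4% to 36.4%. Rag1, of the recombinase that cuts antigen receptor genes, was in 0% to 1.49% of members, Ccr9, a homing receptor of thymus-seeding cells, in 0% to 1.55%, and Siglech in 0% to 1.55%. At this depth a cell can express a gene and show no UMI of it, so these are shares of barcodes with a UMI and not of cells that express the gene.

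Of 12 priming genes, 0 differed in order over the genotypes after Benjamini-Hochberg adjustment (smallest adjusted p = 0.267, exact permutation tests), which with 6 libraries can call a gene only if at least 6 of the 12 reach the smallest possible p. Satb1 came nearest, in 7.50% and 9.23% of members in Y665H, 14.0% and 14.2% in WT and 16.6% and 14.4% in Y665F (unadjusted p = 0.0222 by the exact permutation test). The genotypes did not overlap, and Klf1 barcodes had Satb1 in 0.487% to 1.24%, or 4.79% in Y665F 2. Ly6a, which encodes the stem cell antigen Sca-1, was in 3.88% and 4.48% of WT members, 8.50% and 7.69% in Y665H and 17.6% and 9.91% in Y665F. Both mutants lay above WT, an order the exact permutation test was not set for (p = 0.578). Mpo, the granule peroxidase of myeloid progenitors, was in 12% to 30.2% of members, and in 35.0% of Klf1 barcodes of Y665F 2, above the 30.2% of the members of that library. Mki67 was more frequent in Klf1 barcodes than in members in all 6 libraries and Kit in 5 of 6. By these values the Klf1 barcodes are no background for these 2 genes. Erythroid progenitors divide and use KIT themselves, but why the 2 genes were frequent in the Klf1 barcodes was not tested.

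**Figure D2:**
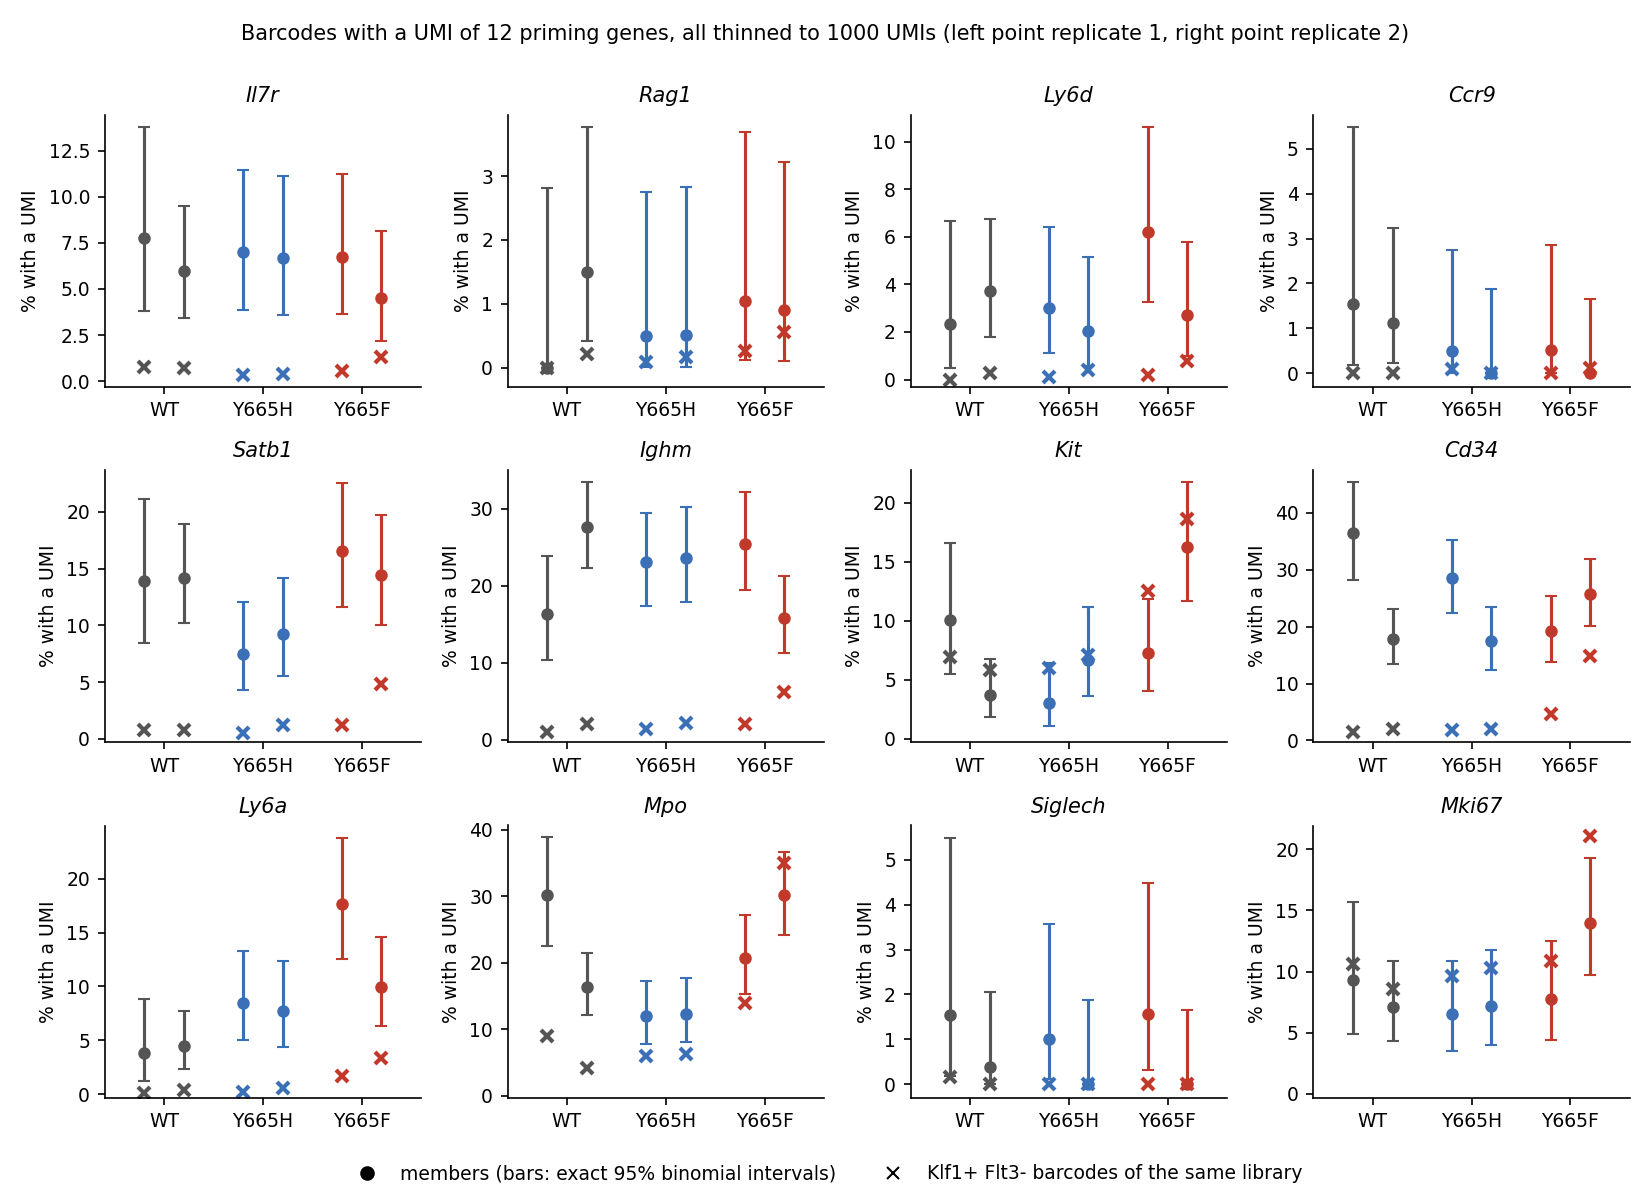
Percentage of members with at least 1 UMI of each of 12 priming genes, barcodes thinned to 1000 UMIs and those under 1000 left out, with exact 95% binomial intervals (circles), and the same in Klf1 barcodes without Flt3 (crosses), for the 2 libraries of each genotype. Satb1 separates Y665H (7.50% and 9.23%) from WT (14.0% and 14.2%), while Il7r lies between 4.50% and 7.75% throughout.

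The UMIs of all members of a library were then summed, and 7121 genes were tested over the 6 sums with edgeR. A gene was called at an adjusted p under 0.05 with an absolute log2 fold change over 1. In Y665H members 0 of 7121 genes (0%) were called against WT, with 326 genes at an unadjusted p under 0.05 (120 higher and 206 lower). DESeq2 also called 0, with 102 at an unadjusted p under 0.05, and a fit without the filter on low counts called 2. The smallest adjusted p was 0.376, for Lyrm4, a mitochondrial iron-sulphur cluster factor, at 7.52 and 4.82 CPM in WT, 47.6 and 25.6 in Y665H, and 15.02 and 31.7 in Y665F. Both Y665H values lay above both WT values (log2 fold change 2.72). Of 242 tested genes in 20 lists 0 were called in Y665H by either tool, with 10 at an unadjusted p under 0.05, and the list medians ran from −0.47 (mature neutrophil, 5 genes tested) to 0.44 (erythroid and megakaryocyte, 9 genes tested) against −0.02 for all genes.

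Y665F members differed from WT members in 316 genes. Of 7121 genes, 117 were called higher (1.64%) and 199 lower (2.79%), and the median log2 fold change of all genes was 0.01. DESeq2 called 13 higher and 81 lower. At an unadjusted p under 0.05 there were 1540 genes (21.6%), the background for such counts in the lists. Members that scored as doublets were 22.5% and 20.7% in Y665F and 2.72% to 14.8% in the other 4 libraries. The doublet rate was set to rise with the number of barcodes (0.8% expected per 1000), and the Y665F libraries held the most barcodes. Among all filtered barcodes the doublet share was also highest in Y665F, and an excess of doublets in Y665F members was not tested. Without the members that scored as doublets 206 genes were called, 183 of them among the 316. In 116 of the 117 both Y665F libraries lay above all 4 other libraries, and in 194 of the 199 both lay below. The calls came from these same libraries, so this separation follows largely from the selection and is given as a description only. The share of such genes over all tested genes was not counted. Leaving out Y665F 2 left 42 calls and leaving out WT 2 left 99, and 36 and 82 of the 316 were among them. When the same contrast was fitted in the Klf1 barcodes of these libraries, 1345 of 10828 genes were called higher and 996 lower. Between members and Klf1 barcodes the size of the Y665F effect differed in 122 of 10378 genes (1.18%), among them 3 of the 117 rises and 6 of the 199 falls. For the other calls the test found no difference from the change in Klf1 barcodes of the same libraries, and whether they lie in the members or in RNA that drifts between droplets was not tested. For 37 of the 117 rises the mean level in Y665F was higher in the Klf1 barcodes than in the members.

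**Figure D3:**
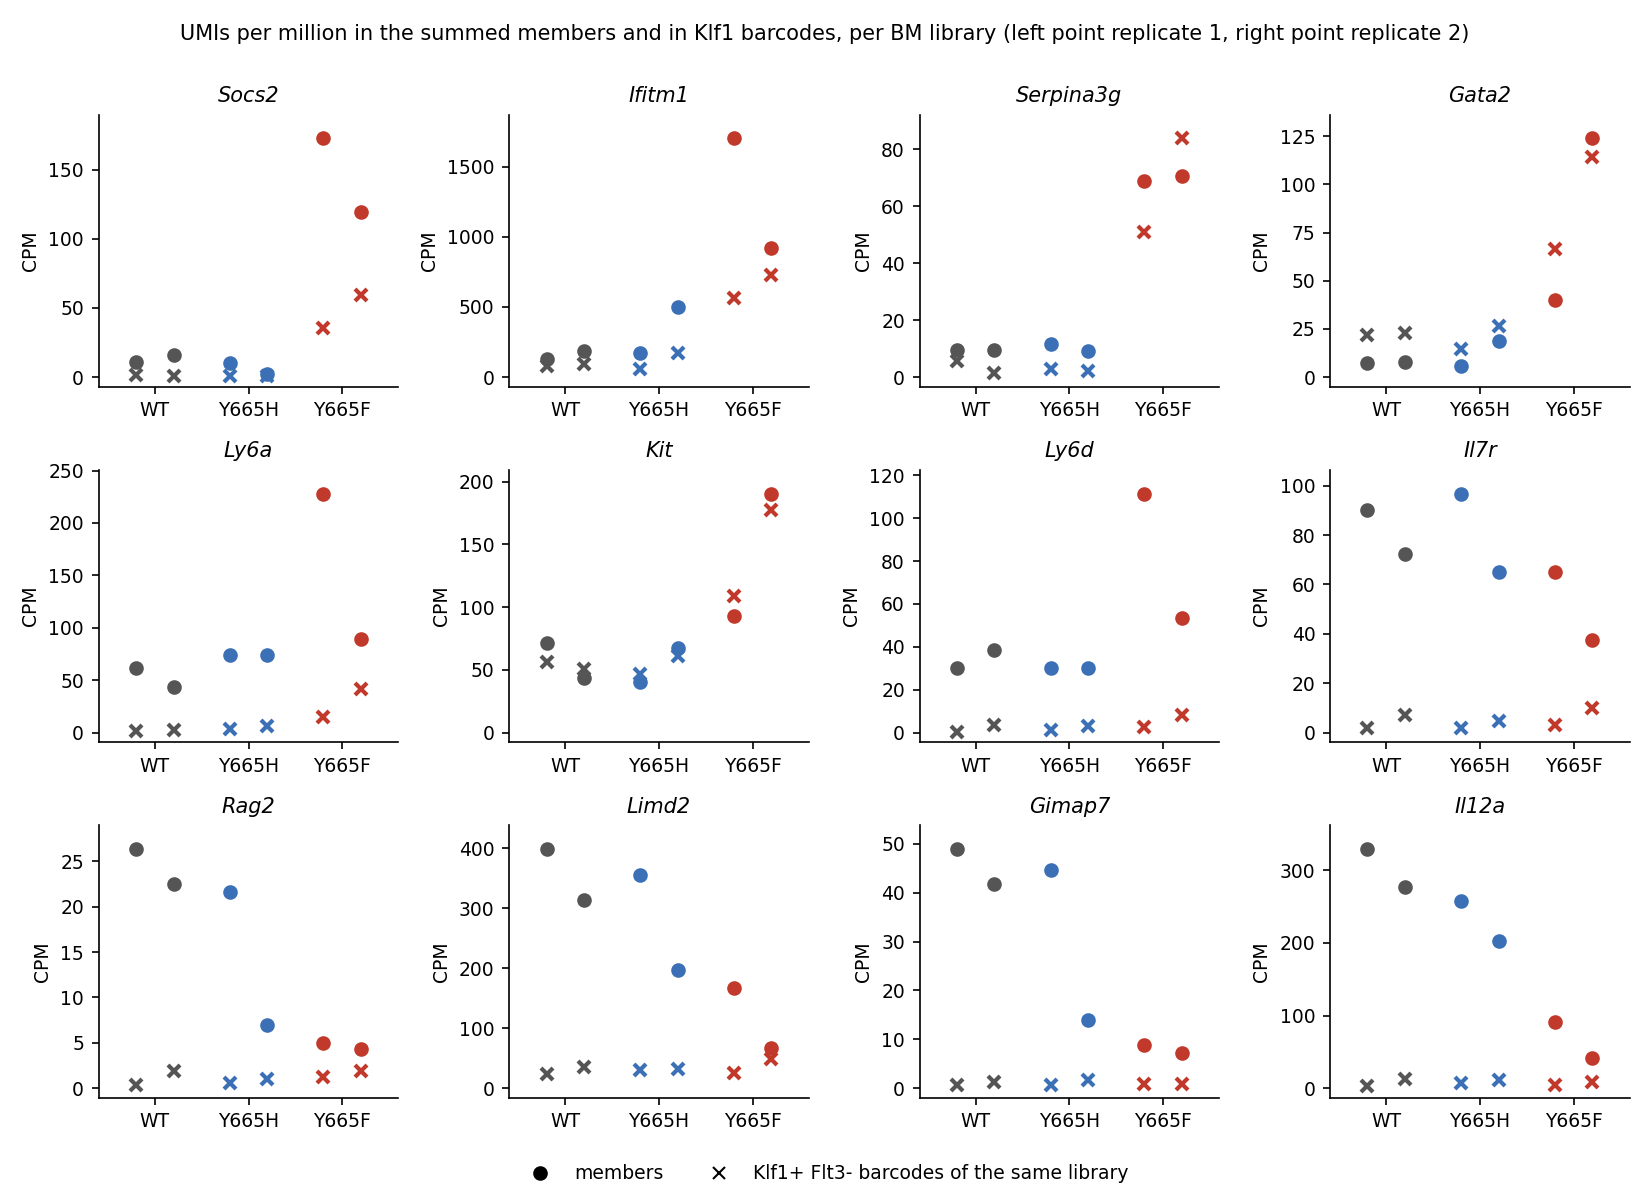
Level of 12 genes in CPM in the summed members (circles) and in Klf1 barcodes without Flt3 (crosses) of each BM library, each panel with its own linear axis from 0. Socs2 in Y665F members (173 and 120 CPM) stands above the Klf1 barcodes of the same libraries (35.3 and 59.4 CPM). Flt3 barcodes without Dntt, not drawn, had 123 and 96.6 CPM there.

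A feedback gene of STAT5 signalling had the smallest adjusted p of all genes. Socs2, a suppressor of cytokine signalling and a direct STAT5 target, was at 11.3 and 16.1 CPM in WT members, 10.1 and 2.32 in Y665H, and 173 and 120 in Y665F. Both Y665F libraries lay far above the other 4 (log2 fold change 3.45, SE 0.40, adjusted p = 2.04e-05 by edgeR's quasi-likelihood test), and the highest adjusted p with 1 library left out was 0.000195. Klf1 barcodes had 0.793 to 1.75 CPM in WT and Y665H and 35.3 and 59.4 CPM in Y665F (log2 fold change 4.88). The effects in members and in Klf1 barcodes did not pass edgeR's test of their difference (adjusted p = 0.289). Flt3 barcodes without Dntt had 123 and 96.6 CPM in Y665F (log2 fold change 5.80), and barcodes with Dntt and Ebf1 had 229 and 96.2 CPM. Cish, another feedback inhibitor, was at 15.04 and 4.82 CPM in WT, 4.33 and 0 in Y665H, and 22.5 and 30.3 in Y665F. It lay highest in both Y665F libraries without passing the test (log2 fold change 1.50, adjusted p = 0.136). Of 20 STAT5 targets listed, 11 were tested and Socs2 alone was called, with 6 at an unadjusted p under 0.05 and a median of 0.38. Bcl2, a survival gene under STAT5 control, gave a log2 fold change of −0.24 (adjusted p = 0.684). Of 7 BCL2 family genes tested by edgeR 0 were called, with 2 at an unadjusted p under 0.05, and of 10 JAK and STAT genes 0 were called, with 4 at an unadjusted p under 0.05 and a median of 0.64. DESeq2 called 0 in both.

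Stem and multipotent progenitor genes were called higher in Y665F members in 8 of 16 tested, against 1.64% of all genes, and lower in 0. Their median log2 fold change was 1.22 against 0.01 for all genes. By edgeR 12 of the 16 were at an unadjusted p under 0.05, against 21.6% of all genes. The list was written with earlier results of these data known, so these counts are a description with no test. DESeq2 called 3 of the 16. Gata2, Ifitm1, Tal1, Hlf, Ly6a, Ifitm3 and Kit were among the 8. In Klf1 barcodes of the same libraries 16 of 21 were called higher, with a median of 2.07, and the stem markers Hlf, Mecom, Procr and Mllt3 summed there to 59.8 and 137 CPM in Y665F and 45.7 to 61.5 CPM elsewhere. Ifitm1, an interferon-inducible membrane protein of stem cells, was at 130 and 183 CPM in WT, 173 and 497 in Y665H, and 1702 and 923 in Y665F. Its Y665F levels in members exceeded those in Klf1 barcodes (565 and 727 CPM) but not those in Flt3 barcodes without Dntt (2008 and 999 CPM). Barcodes with Dntt and Ebf1 had 1023 and 903 CPM in Y665F. The rise in members had a log2 fold change of 3.12 (SE 0.43, adjusted p = 0.000268, edgeR's quasi-likelihood test), and of 2.54 to 3.51 with 1 library left out. Gata2, a transcription factor of stem cells and of mast and megakaryocyte progenitors, was at 7.52 and 8.03 CPM in WT, 5.77 and 18.6 in Y665H, and 40.0 and 124 in Y665F. Both Y665F libraries lay highest (log2 fold change 3.39, SE 0.55, adjusted p = 0.00166), and the call held without any 1 library. Klf1 barcodes of Y665F reached 66.3 and 114 CPM.

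Ly6a was at 62.0 and 43.3 CPM in WT members, 73.6 and 74.4 in Y665H, and 228 and 89.3 in Y665F (log2 fold change 1.69, SE 0.37, adjusted p = 0.0102). It was far lower in Klf1 barcodes, at 1.89 to 5.98 CPM in WT and Y665H and 15.3 and 41.5 CPM in Y665F. Tal1, which specifies blood stem cells, was at 9.40 and 3.21 CPM in WT, 11.5 and 16.3 in Y665H, and 33.8 and 49.0 in Y665F. Its Y665F effect was larger in members (log2 fold change 2.78) than in Klf1 barcodes (0.50), a difference of 2.19 that passed the test (adjusted p = 0.034). Its level was higher in Klf1 barcodes in every library, at 39.3 to 52.9 CPM in WT and Y665H and 70.9 and 87.9 CPM in Y665F. Kit, the receptor for stem cell factor, was at 71.4 and 43.3 CPM in WT, 40.4 and 67.4 in Y665H, and 92.6 and 190 in Y665F, with nearly the same values in Klf1 barcodes (109 and 177 CPM in Y665F). The stem cell transcription factor Hlf (log2 fold change 1.83) was called as well, and Cd34 was not (−0.18, adjusted p = 0.787). Without Y665F 2 the calls of Tal1, Hlf and Kit were lost, without WT 2 those of Tal1, Hlf, Kit and Ly6a, and without Y665F 1 those of Ly6a and Ifitm3 (highest adjusted p per gene 0.0545 to 0.467).

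Of 9 erythroid and megakaryocyte genes tested 2 were called higher, Pf4 and Itga2b, and 0 lower, with a median of −0.03, and DESeq2 called 0. Of all tested genes 1.64% were called higher. Pf4, platelet factor 4, was at 13.2 and 96.3 CPM in WT, 20.2 and 55.8 in Y665H, and 243 and 449 in Y665F (log2 fold change 2.62, SE 0.49, adjusted p = 0.00356). The call of Pf4 held without any 1 library, with a log2 fold change from 1.76 (without WT 1) to 4.84 (without WT 2). Itga2b, which encodes integrin αIIb, had few UMIs outside Y665F, at 1.88 and 3.21 CPM in WT, 1.44 and 2.32 in Y665H, and 21.3 and 63.4 in Y665F. The ratio of Y665F to WT was 15.7 (exact 95% interval 5.13 to 78.4 for counting error), and the call was lost without Y665F 2 (adjusted p = 0.352). Klf1 barcodes of the Y665F libraries had 121 and 490 CPM of Pf4 and 26.7 and 67.8 CPM of Itga2b. Gp9, a platelet glycoprotein, was at 7.52 and 11.2 CPM in WT members and 5.01 and 11.5 CPM in Y665F. The 3 megakaryocyte markers Pf4, Itga2b and Gp9 summed to 613.6 and 794 CPM in the other filtered barcodes of Y665F, against 112 to 177 CPM in WT and Y665H, and what they add to the members' profile was not tested. Tfr2, a transferrin receptor of erythroid cells, was also among the largest rises (log2 fold change 2.91, adjusted p = 0.0227), with 57.4 and 38.0 CPM in WT Klf1 barcodes and 62.5 and 56.3 CPM in Y665F, and its call was lost without WT 2 or Y665F 2.

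Of 24 lymphoid priming genes tested, 3 were called lower (Rag2, Cnn3 and Limd2) and 1 higher (Ly6d), the median log2 fold change was −0.33, and 5 of 24 lay above 0. By edgeR 10 of the 24 were at an unadjusted p under 0.05, against 21.6% of all genes, and DESeq2 called 2 of the 24. In Y665H, against the same 2 WT libraries, 0 were called by edgeR or DESeq2, with 0 at an unadjusted p under 0.05, a median of −0.16 and 6 of 24 above 0. In Klf1 barcodes the same list had a median of 0.85, with 9 called higher and 1 lower of 26 tested. Rag2, the partner of RAG1 in the recombinase, was at 26.3 and 22.5 CPM in WT members, 21.6 and 6.97 in Y665H, and 5.01 and 4.32 in Y665F. Klf1 barcodes had 0.291 to 1.90 CPM in all libraries. The fall of 2.26 on the log2 scale (SE 0.64, adjusted p = 0.0409) was lost without either WT library, either Y665F library or Y665H 1 (highest adjusted p = 0.259).

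Limd2, a LIM-domain protein of lymphoid cells, was at 398 and 315 CPM in WT, 356 and 198 in Y665H, and 168 and 67.7 in Y665F, and in Klf1 barcodes at 24.0 to 48.6 CPM. Both Y665F libraries lay lowest (log2 fold change −1.50, SE 0.37, adjusted p = 0.0198). Cnn3, an actin-binding calponin, fell by 1.54 on the log2 scale, from 141 and 125 CPM in WT to 45.0 and 41.8 CPM in Y665F. Xrcc6, which encodes Ku70 of the end-joining machinery, was at 199 and 165 CPM in WT, 140 and 119 in Y665H, and 77.6 and 54.7 in Y665F (log2 fold change −1.38, SE 0.30, adjusted p = 0.0102). Xrcc6 and Rag2 were the 2 genes called lower of 7 tested in the list of V(D)J recombination and end joining, against 2.79% of all genes. That list had a median of −0.56, with 3 genes at an unadjusted p under 0.05 by edgeR, and DESeq2 called 1. The calls of Limd2, Cnn3 and Xrcc6 were lost without Y665F 2 (adjusted p = 0.406, 0.0890 and 0.258).

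Ly6d, which among lymphoid progenitors marks those biased to the B lineage, was the 1 gene of the list called higher. It was at 30.1 and 38.5 CPM in WT, 30.3 and 30.2 in Y665H, and 111 and 53.3 in Y665F, with at most 8.35 CPM in Klf1 barcodes. Both Y665F libraries lay above the rest (log2 fold change 1.33, SE 0.37, adjusted p = 0.0398), and the call was lost without WT 1, WT 2 or Y665F 1 (highest adjusted p = 0.464). Il7r was at 90.2 and 72.2 CPM in WT, 96.7 and 65.1 in Y665H, and 65.1 and 37.5 in Y665F, with Y665H 2 and Y665F 1 equal to 3 digits and no call (log2 fold change −0.57, SE 0.33, adjusted p = 0.321). Satb1 (0.25) and Ighm (−0.27) were not called either. Of 25 lymphoid transcription factors tested, 1 was called, Ikzf2, which encodes Helios, at 15.04 and 6.42 CPM in WT, 18.8 and 32.5 in Y665H, and 42.5 and 70.6 in Y665F (log2 fold change 2.47, SE 0.46, adjusted p = 0.00391), and this call was lost without WT 2 (adjusted p = 0.0521). The B-lineage list had 1 call of 10 tested, Rag2, and a median of −0.68. DESeq2 called 0 in both of these lists.

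Gimap7, a GTPase of the immunity-associated family expressed in lymphocytes, was at 48.9 and 41.7 CPM in WT, 44.7 and 13.9 in Y665H, and 8.76 and 7.20 in Y665F. Klf1 barcodes had at most 1.65 CPM, and the fall held without any 1 library (log2 fold change −2.40, SE 0.50, adjusted p = 0.00836). Slc16a11, a monocarboxylate transporter, was at 24.4 and 17.7 CPM in WT, 30.3 and 23.2 in Y665H, and 0 and 1.44 in Y665F, where it rested on 1 UMI. The ratio of WT to Y665F was 31.0 (exact interval 5.06 to 1280), and this call too held without any 1 library. Gbp8, an interferon-inducible GTPase, had a like ratio of 32.3 (5.29 to 1327) but ranged from 8.03 to 37.6 CPM between the 2 WT libraries and lost its call without WT 1 or Y665F 2.

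**Figure D4:**
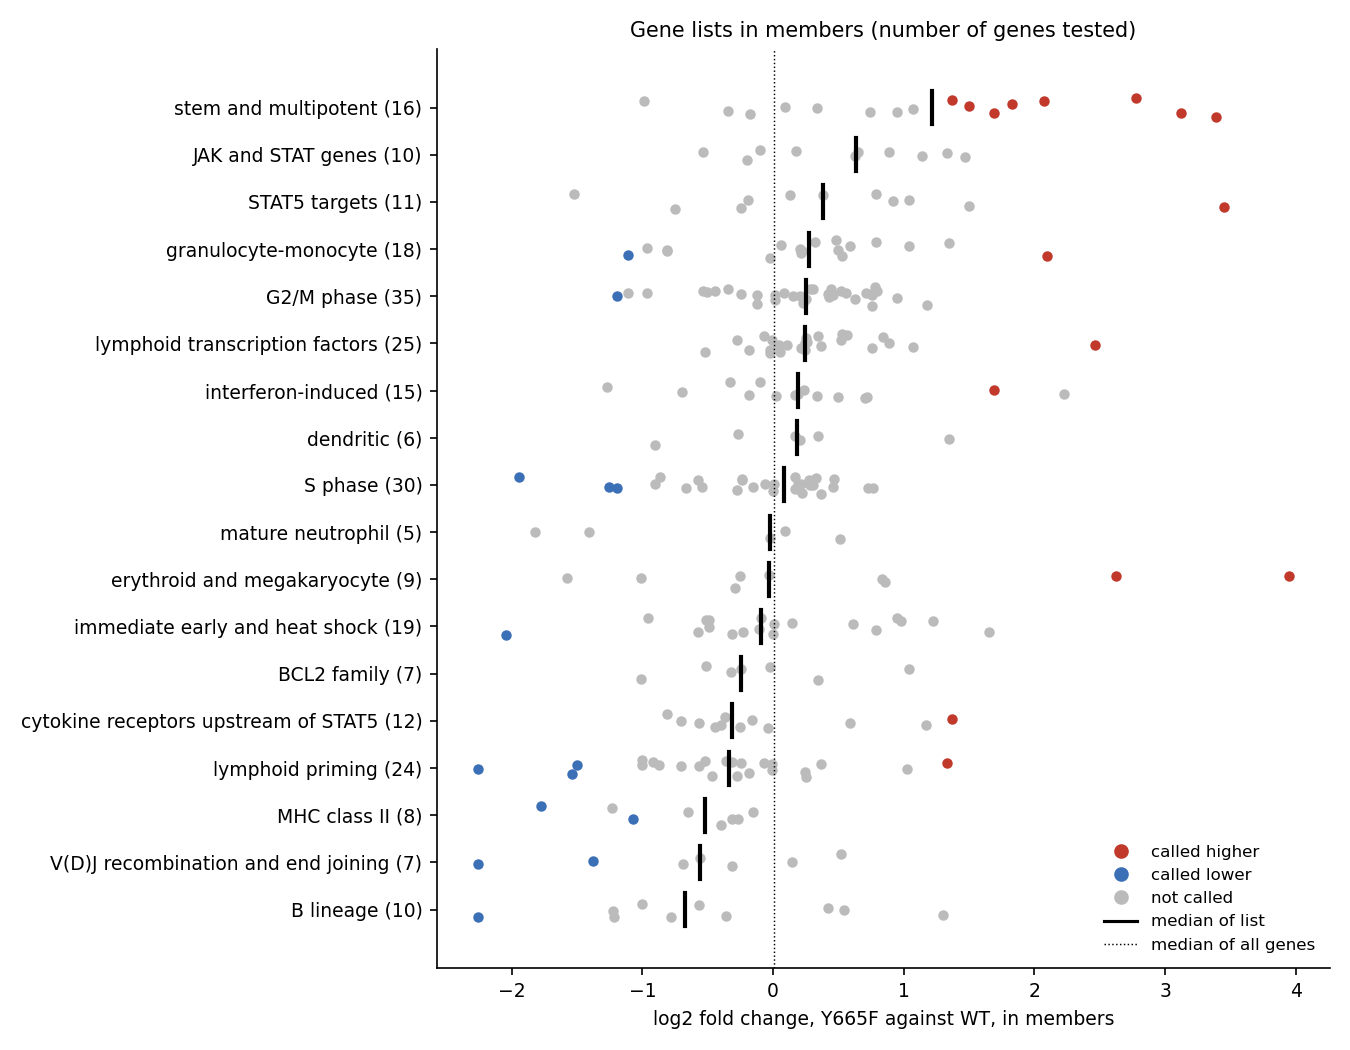
Log2 fold change of Y665F against WT in members for each tested gene of the lists with at least 5 tested genes, coloured by call, with the median of each list (bar) and of all 7121 genes (dotted line at 0.01). The lists were written with earlier results of these data known and carry no test. The stem and multipotent list lies furthest to the right with a median of 1.22. Left of 0 lie the medians of the B-lineage (−0.68), V(D)J (−0.56), MHC class II (−0.52) and lymphoid priming (−0.33) lists. Those of cytokine receptors upstream of STAT5 (−0.31), BCL2 family (−0.24), immediate early and heat shock (−0.09), erythroid and megakaryocyte (−0.03) and mature neutrophil genes (−0.02) do so too.

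MHC class II genes, which dendritic and B cells use to present antigen, had a median of −0.52 over 8 tested, with H2-DMb1 (log2 fold change −1.78, adjusted p = 0.0198) and H2-Ob (−1.07, adjusted p = 0.0433) called lower. Of all tested genes 2.79% were called lower, and DESeq2 called 0 of the 8. H2-Ob was at 94.0 and 103 CPM in WT and 48.8 and 40.3 CPM in Y665F, against 4.26 to 11.8 CPM in Klf1 barcodes. Both calls were lost without WT 2 or Y665F 2, and that of H2-Ob also without Y665F 1 or Y665H 2. Of 6 dendritic genes tested 0 were called by edgeR or DESeq2, with 2 at an unadjusted p under 0.05. In the granulocyte-monocyte list Ms4a3 was called higher (2.09) and Ly86 lower (−1.11) of 18 tested, with a median of 0.27, and DESeq2 called 0. Ms4a3 lost its call without WT 1, WT 2 or Y665F 2, and Ly86 without WT 1, Y665F 2 or either Y665H library.

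Of 30 S-phase genes tested, 3 were called lower (Rrm2, Gins2 and Fen1) and 0 higher, the median was 0.09, and DESeq2 called 1. Gins2 lost its call without WT 2 or Y665F 2, and Fen1 without WT 1 or either Y665F library. Rrm2, the small subunit of ribonucleotide reductase, was at 130 and 146 CPM in WT, 199 and 109 in Y665H, and 30.03 and 38.9 in Y665F (log2 fold change −1.95, SE 0.34, adjusted p = 0.00215), and held its call without any 1 library. In Klf1 barcodes its log2 fold change was −2.86, a difference that did not pass the test (adjusted p = 0.270). Of 35 G2/M genes tested 1 was called lower by edgeR, Cdk1 (−1.20), and DESeq2 called 0. The median was 0.25, 25 lay above 0 and 10 were at an unadjusted p under 0.05 by edgeR. The call of Cdk1 was lost without WT 2 or either Y665F library, and Mki67 was not called (0.76, adjusted p = 0.134).

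Ier2, an immediate early gene that responds to cell handling among other stimuli, was at 295 and 708 CPM in WT, 488 and 458 in Y665H, and 113 and 128 in Y665F (log2 fold change −2.04, SE 0.37, adjusted p = 0.00298). Its fall exceeded that in Klf1 barcodes by 1.22 on the log2 scale (adjusted p = 0.0174), and the call was lost without WT 2 (adjusted p = 0.0620). Of 19 immediate early and heat shock genes tested it was the 1 called, and the median was −0.09.

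Other rises and falls of the largest size were spread over unrelated functions. Serpina3g, a serine protease inhibitor, was at 9.40 and 9.63 CPM in WT, 11.5 and 9.30 in Y665H, and 68.8 and 70.6 in Y665F (log2 fold change 2.91, SE 0.42, adjusted p = 0.000489). Its replicates agreed closely, the call held without any 1 library, and Klf1 barcodes reached 51.0 and 83.8 CPM in Y665F. Dach1, a transcriptional cofactor, rose by 2.72 and lost its call without WT 2 or Y665F 2 (adjusted p = 0.117 and 0.547). Emilin2 (3.24, ratio 10.1 with an exact interval of 2.52 to 87.4) and Gpatch2 (2.82, ratio 7.22, interval 2.23 to 37.1) had few UMIs in WT and lost their calls whichever library was left out. Among the falls, Selenbp1, a selenium-binding protein (−2.42), and Taf9, a general transcription factor subunit (−2.38), fell by nearly the same amount in Klf1 barcodes (−2.36 and −2.51), and both lost their calls without Y665F 2 (adjusted p = 0.0556 and 0.144). Dxo (−2.67), Gnb1l (−2.50), Tuba1a (−2.41) and Htatip2 (−2.17) completed the 10 largest falls, and these 4 also lost their calls without WT 2 or Y665F 2.

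The members were next compared with their nearest neighbours in the same libraries, to ask whether Y665F acted differently on them. Against Flt3 barcodes without Dntt, the Y665F effect differed in 7 of 8091 genes (0.0865%), and against barcodes with Dntt and Ebf1 in 4 of 7559 (0.0529%). Of the 117 rises 0 differed from the Flt3 barcodes and 0 of the 116 tested differed from the Ebf1 barcodes, and of the 199 falls 1 did, Rcn1, a calcium-binding protein of the endoplasmic reticulum (difference −1.72 from the Flt3 barcodes, adjusted p = 0.0459). In simulated data the first of these tests called 58.2% of genes that differed by 4-fold and 13.6% of those that differed by 2-fold. The simulated Flt3 barcodes were given the means and spread of the members, so these shares may not hold for the real ones. Differences of 4-fold or less could therefore have been missed.

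Of the 7 genes that differed from the Flt3 barcodes 5 were neutrophil genes. S100a9 was at 1.88 and 97.9 CPM in WT members and 67.6 and 31.7 CPM in Y665F members, and was not called (log2 fold change −0.02, but 4.75 without WT 2 and −1.03 without WT 1). Its Y665F effect lay 4.08 below that in the Flt3 barcodes, and the mature neutrophil markers together were at 16.7 and 92.0 CPM in those barcodes in WT and 675 and 1121 CPM in Y665F. The WT members differed widely among themselves in these markers (9.40 and 305 CPM). Without WT 2 all 7 differences from the Flt3 barcodes lost their calls, that of S100a9 at −2.05 (adjusted p = 0.713), while 48 genes were called in all.

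Against Y665H, Y665F members had 280 genes called higher (3.93%) and 360 lower (5.06%), and by DESeq2 30 higher and 216 lower. Socs2 led by adjusted p (log2 fold change 4.30, adjusted p = 3.55e-06). Cish, whose Y665H and Y665F levels are given above, was called here (3.17, adjusted p = 0.0139), as was Slc16a11 (−5.04, adjusted p = 0.00145). Rag2 was not (−1.74, adjusted p = 0.0993), and Y665H 2 lay near the Y665F libraries. Of the lists, stem and multipotent genes had 8 called higher of 16 and lymphoid priming genes 1 higher and 2 lower of 24.

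Promoters of the called genes were searched for TTCNNNGAA, the core site that STAT5 dimers bind, which reads the same on both strands. The windows were RefSeq promoters of GRCm38.p6, from 250 bases before to 50 bases after the gene start. Counts are of genes with the motif in any of their promoters. Of 27025 genes with a promoter 9.55% held it, and of 5751 tested genes with a promoter 8.12% did. Among genes with a promoter, it was in 11 of 88 called higher (12.5%) and in 13 of 160 called lower (8.13%). Of these windows, 3 are shown, with the motif in capitals: the 2 largest rises that hold it before the RefSeq gene start, and Il7r, which was not called.
Serpina3g, chr12:104236094-104236142, plus strand: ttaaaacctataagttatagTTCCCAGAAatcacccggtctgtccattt
Emilin2, chr17:71311068-71311116, minus strand: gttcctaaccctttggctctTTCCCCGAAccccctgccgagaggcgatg
Il7r, chr15:9529990-9530038, minus strand: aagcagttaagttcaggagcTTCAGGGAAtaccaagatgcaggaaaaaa
The motif began 33 bases before the RefSeq gene start in Serpina3g, 85 in Emilin2 and 142 in Il7r. By the GENCODE positions, Emilin2 and Il7r start further upstream, and there the motif lies inside the gene. A match says only that these letters are present, and Socs2 had no entry in the promoter table.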

How the data were processed

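The BM single-cell libraries were made by the authors with 10x Genomics chemistry (a 3′ kit per the labels, a 5′ kit per the study's methods) and mapped to mm10. The submitters' processing notes name Cell Ranger 5.0 and Seurat 4.0, and the file headers name Cell Ranger 6.0.0. The deposited values are raw UMI counts per gene and barcode, with no normalization. Members and gene lists were chosen with earlier results of these data known, so the lists are described by counts and medians and carry no test.

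Barcodes were filtered at 500 genes and 10% mitochondrial UMIs, and the gate was applied to the deposited counts. Doublets were scored against simulated doublets (0.8% expected per 1000 barcodes) and left out in an alternative only; 22.5% and 20.7% of the Y665F members and 2.72% to 14.8% of those of the other 4 libraries scored as doublets, against 16.0% and 15.0% and 3.72% to 11.2% of filtered barcodes. Shares carry exact Clopper-Pearson intervals at 95%, and intervals cover counting error only.

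Counts were summed over the members of each library and tested with edgeR 4.0.16 (TMM, filterByExpr, glmQLFit and glmQLFTest over all 6 BM libraries with genotype as the only term, R 4.3.3), with Benjamini-Hochberg adjustment over 7121 genes. The 6 genes of the gate were left out. Interaction tests had the library as a block. In the gene tests p-values measure the spread between the 2 libraries of a genotype, which differed in sex. Those of the interaction tests do not measure that spread well. Against the Flt3 barcodes S100a9 had an SE of 0.40, while its difference moved from −4.08 to −2.05 without WT 2. CPM is UMIs per 1000000 of the summed UMIs. Named genes were the 10 largest rises and falls among called genes with both mutant libraries beyond both WT libraries (without mitochondrial, sex-linked and unnamed genes), called genes of the lists, the 12 priming genes, Stat5a, Stat5b, Cish, Socs2, Il7r and Bcl2, and the 5 largest interactions in each direction. Rcn1, Il12a, Gapdh and Eif5a were named after their values were seen. Some genes that the rule names are not reported here. Alternatives were other gates, depths, doublet removal, DESeq2 1.42.0 and each library left out. On simulated counts for the 7121 genes of Y665F against WT, 16.4% of 2-fold, 85.1% of 4-fold and 93.9% of 8-fold changes were called, with 5 unchanged genes called. Gene positions came from GENCODE vM21 (GRCm38), by which 32158 of 32285 genes were matched.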

Additional observations from a re-analysis of the deposited data

Results flagged for a closer look

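Each result below is a gene whose Y665F effect (Y665F against WT) in members differed from that in a neighbouring gate of the same libraries, by edgeR's interaction test with the library as a block; values are differences of log2 fold changes. The adjusted p-values of this test do not measure the spread between libraries well, as the differences without WT 2 given below show. Against Flt3 barcodes without Dntt, the Y665F effect on 5 neutrophil genes was lower in members. The differences were −5.34 for Camp (adjusted p = 2.34e-11), −4.90 for Ngp (adjusted p = 3.46e-20) and −4.08 for S100a9 (adjusted p = 6.70e-21). They were −3.98 for Retnlg (adjusted p = 2.78e-07) and −3.46 for S100a8 (adjusted p = 1.43e-14). The effect on Rcn1 was also lower in members (difference −1.72, SE 0.42, adjusted p = 0.0459), and that on Lyrm4 was higher (2.49, SE 0.61, adjusted p = 0.0459).

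Against barcodes with Dntt and Ebf1, the Y665F effect on Ngp was lower in members (difference −3.49, adjusted p = 0.00669 by the same interaction test). Pclaf, a PCNA clamp-associated factor, differed by 1.24 (SE 0.22, adjusted p = 0.000821) and the histone gene Hist1h2ae by 1.35 (SE 0.23, adjusted p = 0.000821). In members Hist1h2ae was at 186 and 199 CPM in WT and 363 and 382 CPM in Y665F, a difference that was not called (log2 fold change 1.01, adjusted p = 0.0627), and Pclaf was at 451 and 655 CPM in WT and 414 and 444 CPM in Y665F. Without WT 2 the differences of Camp, Ngp and S100a9 from the Flt3 barcodes were −1.80, −1.96 and −2.05, those of Retnlg and S100a8 turned to 1.45 and 1.05, and the difference of Ngp from the Ebf1 barcodes was 0.12; none of these 6 was called (adjusted p = 0.592 to 0.995). Rcn1 also lost its call without WT 2 or either Y665F library, Lyrm4 without either WT library or Y665F 2, Ngp against the Ebf1 barcodes and Hist1h2ae without Y665F 1, and Pclaf without Y665F 2.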

How the results depend on the processing

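The share of members in Y665H minus WT was −1.16 percentage points of filtered barcodes but 1.60 of all Flt3 barcodes, 6.04 in the denominator added later (2.57 at 1200 UMIs) and 3.74 in it at 1000 UMIs per barcode. Of the 316 genes called in Y665F against WT, 1 turned sign without WT 1. The 316 genes called in Y665F against WT became 122 with Dntt at 2 UMIs or more, 206 with doublets left out, 745 without the Elane clause and 94 by DESeq2, and 9 of them differed in effect from Klf1 barcodes; leaving out 1 library gave 42 (Y665F 2) to 484 (WT 1). The 640 in Y665F against Y665H became 353, 1139 and 246 with Dntt at 2 UMIs, without the Elane clause and by DESeq2, and 78 to 890 without 1 library. The 0 in Y665H against WT became 2 without a filter, and 0 to 7 without 1 library. The 26 called list genes became 16, 62 and 9 under those 3 settings, and 11 to 38 without 1 library. The 7 interactions with Flt3 barcodes became 4 with doublets left out and 5 to 48 without 1 library, and the 4 with Ebf1 barcodes became 7 with doublets left out, 7 at 1200 UMIs and 2 to 31 without 1 library. Of 43 named calls, 9 held without any 1 library; 29 were lost without Y665F 2 and 22 without WT 2. The share of members differed by −2.08 percentage points (Y665F minus WT), and by −18.9 in the denominator added later, where the share is that of barcodes with Dntt, a gene of the rule; without 1 library the difference was −2.60 to −1.55, and −1.43 to −0.911 at 1000 UMIs. The cause of these changes was not tested.

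Replicate 1 was female and replicate 2 male by Xist in each genotype, but no label says that a number marks a shared litter, batch or day, and with 2 numbers the libraries were not taken as paired: deviations of same-numbered libraries correlated at 0.143 (WT and Y665H), −0.109 (WT and Y665F) and 0.128 (Y665H and Y665F) over 7120 genes. With the replicate number as a block, 253 genes were called in Y665F against WT, 247 of them among the 316, 588 in Y665F against Y665H, and 24 list genes.

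With 147 to 283 members a library, 2-fold changes were rarely detectable.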

Other observations

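Il12a, which encodes the p35 chain of IL-12 and IL-35, was picked out after its values were seen. It was at 329 and 278 CPM in WT members, 258 and 202 in Y665H, and 91.3 and 41.8 in Y665F, against 2.91 to 12.4 CPM in Klf1 barcodes. Both Y665F libraries lay lowest (log2 fold change −2.09, SE 0.35, adjusted p = 0.00187 by edgeR), and the call was lost without Y665F 2 (log2 fold change −1.63). Il12a also fell in Flt3 barcodes without Dntt, from 119 and 129 CPM in WT to 34.4 and 16.9 CPM in Y665F (log2 fold change −2.17).

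A pair of abundant housekeeping genes was also picked after the values were seen. Gapdh, of glycolysis, was at 1391 and 1079 CPM in WT, 1381 and 914 in Y665H, and 388 and 375 in Y665F (log2 fold change −1.62 in members and −1.86 in Klf1 barcodes), and its call was lost without Y665F 2 (adjusted p = 0.0556). Eif5a, a translation factor, was at 1485 and 1793 CPM in WT and 523 and 380 CPM in Y665F (−1.80 and −2.08). Ribosomal protein genes made up 25.7% and 28.0% of the members' UMIs in WT, 27.7% and 28.9% in Y665H, and 32.0% and 30.5% in Y665F.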
